A study of Mus musculus with 55 samples.

Results

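A set of 10 genes that mark hepatic stellate cells or their activated state was described across sorted mouse liver cells: Lrat, Reln, Hand2, Lhx2, Ngfr, Des, Rgs5, Acta2, Tagln and Spon1. They were chosen by gene symbol, and all 10 were found among the 24478 symbols of the deposited table. Reln, Lhx2 and Rgs5 had 2 transcript rows each, of which the more abundant over the 55 libraries was taken, and the other 7 had 1. RNA sequencing had been run on 55 libraries of 10 populations. Of these, 27 came from normal liver and 28 from animals that had undergone partial hepatectomy (PH, surgical removal of some of the liver). All mice were of strain C57B/L6, and cells were sorted by fluorescence (FACS) into TRIzol, a reagent that lyses cells and preserves RNA. The labels state no mutation, transgene or drug in any group, no age, no time after surgery, and no sorting markers. They do not say whether libraries of a group came from separate animals, so p-values measure only the spread between these libraries, which may be technical.

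The groups compared most closely were stellate cells (HSC), with 2 libraries from normal liver and 3 after PH, and cells labelled Thy1, with 2 libraries in each state. The other 8 populations were biliary epithelial cells (BEC, 4 normal and 2 PH), clonal biliary cells (cBEC, 4 and 2), ducts labelled as non-progenitor (NPD, 2 and 2), hepatocytes (HC, 4 and 4), endothelial cells (EC, 2 and 3), liver sinusoidal endothelial cells (LSEC, 3 and 5), Kupffer cells (KC, the resident macrophages, 2 and 3) and blood cells (2 and 2). Levels are in FPKM, a fragment abundance corrected for transcript length and library size, so that levels of different genes can be compared. Read depth is unknown.

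Stellate cells lie between hepatocytes and the sinusoidal endothelium, and they store vitamin A as retinyl esters in lipid droplets. In injured liver they can lose these stores and take on a contractile, matrix-producing state resembling myofibroblasts. Stellate cells also share genes with pericytes, the mural cells of capillaries, and with smooth muscle. Thy1 is a cell surface glycoprotein found on several cell types, including portal fibroblasts and T cells.

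The labels of the populations were set beside marker lists, given as the summed FPKM of a list. The lists were chosen with earlier results of these data known. A list of 28 other stellate genes summed to between 27662 and 35330 FPKM in the HSC libraries and to between 1106 and 4267 in the Thy1 libraries. In HSC, 1 of these 28 genes, Hand1, was listed at 0 in every library. The Thy1 gene itself was at 376.8, 85.7, 54.6 and 33.4 FPKM in the Thy1 libraries and at most 3.51 FPKM in HSC. Mesothelial genes (7 of 8 listed symbols were in the table) summed to between 2417 and 4819 FPKM in Thy1 and to at most 6.45 in HSC. Portal fibroblast genes (13) summed to between 2628 and 4556 FPKM in Thy1 and between 57.6 and 193.2 in HSC, and biliary genes (7) to between 591.4 and 775.6 FPKM in Thy1 and at most 13.1 in HSC. Endothelial genes (10) summed to between 1944 and 1991 FPKM in normal and between 1899 and 3908 in PH Thy1 libraries. Each of these 4 sums was higher in every Thy1 library than in any HSC library. Portal fibroblast genes also summed to between 2698 and 3827 FPKM in normal EC and between 5717 and 7490 in PH EC. Mesothelial genes summed to between 9913 and 12879 FPKM in normal NPD and between 8533 and 8619 in PH NPD, above every Thy1 library. T and NK cell genes (8) summed to at most 2.32 FPKM in HSC and at most 38.6 in Thy1, and Schwann cell genes (6) to at most 2.49 in HSC and 27.3 in Thy1. Hepatocyte genes (7) summed to at most 13.1 FPKM in HSC. All 7 were listed at exactly 0 in every library of BEC, EC, NPD and KC in both states. The reason is not given in the sources used here, so this sum cannot check for hepatocyte RNA.

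Library 2 of normal HSC stood apart. Its endothelial genes summed to 1083 FPKM, against 215.2 in normal library 1 and 102.4, 83.1 and 97.8 in the PH libraries. Its Kupffer cell genes (7 of 8 in the table) summed to 812.1 FPKM, against 51.9 in normal library 1 and 41.4, 0.515 and 50.3 after PH. The part of these transcripts in the differences below was not tested, and values without this library are given beside the results that rest on it. The correlation of log2(FPKM + 1) between the 2 normal HSC libraries was 0.923, and between PH HSC libraries it ranged from 0.919 to 0.977. In sorted bulk RNA, fewer cells of a type and less RNA per cell cannot be told apart.

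**Figure D1:**
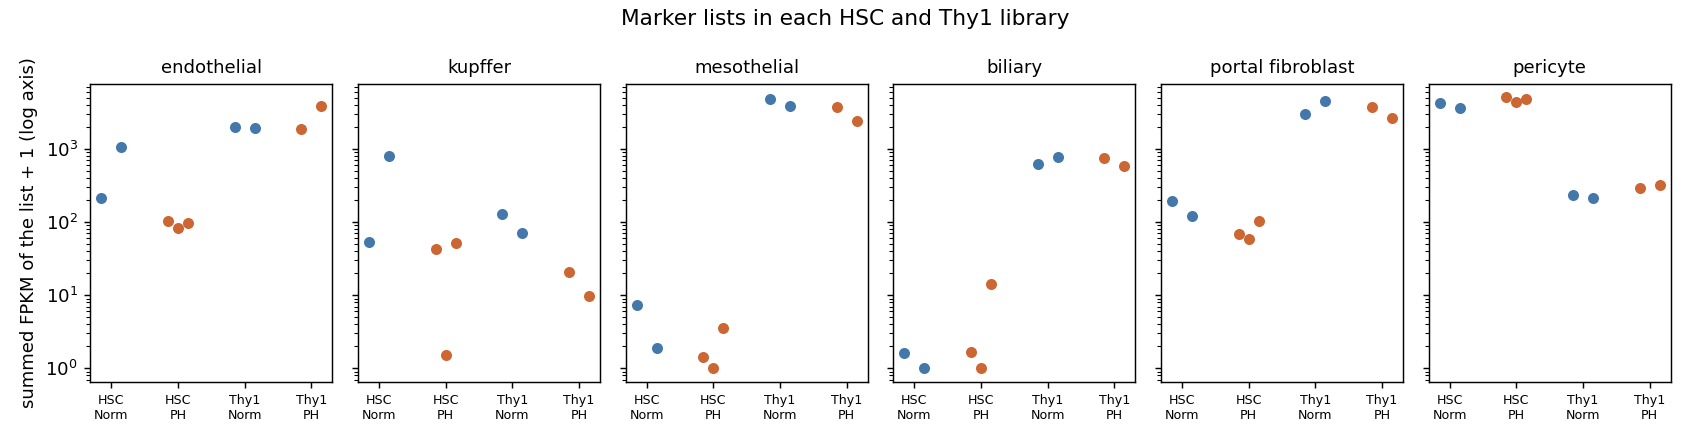
Summed FPKM (plus 1, log axis) of 6 marker lists in each HSC and Thy1 library, normal in blue and PH in orange; points are libraries. Endothelial and Kupffer sums were highest among HSC libraries in normal library 2, and mesothelial sums were at least 2417 FPKM in every Thy1 library and at most 6.45 in HSC.

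Most of the set was concentrated in HSC. For 8 of the 10 genes (Lrat, Reln, Hand2, Lhx2, Ngfr, Des, Rgs5 and Tagln), every one of the 5 HSC libraries was above each of the 50 libraries of the other 9 populations. After PH this held for 9 genes, with Spon1 added, and it did not hold for Acta2 in either state. The share of all genes that meet this rule was not counted. Against the mean of the 8 populations other than Thy1, all 10 genes were higher in HSC in normal liver and after PH (limma, adjusted p under 0.05). In the same tests 14.2% of 16527 genes were higher in normal liver and 17.5% after PH. The genes were chosen as stellate genes, with earlier results of these data known. These counts therefore describe the HSC libraries and are not an independent check of the sort. The log2 difference on log2(FPKM + 1) ranged from 1.94 (Spon1) to 7.67 (Ngfr) in normal liver, and from 4.24 (Acta2) to 7.02 (Lrat) after PH. The call for Acta2 in normal liver, 2.46 (SE 0.61, adjusted p 0.00109), was lost without normal HSC library 2, where the difference was 0.98 (adjusted p 0.324).

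**Figure D2:**
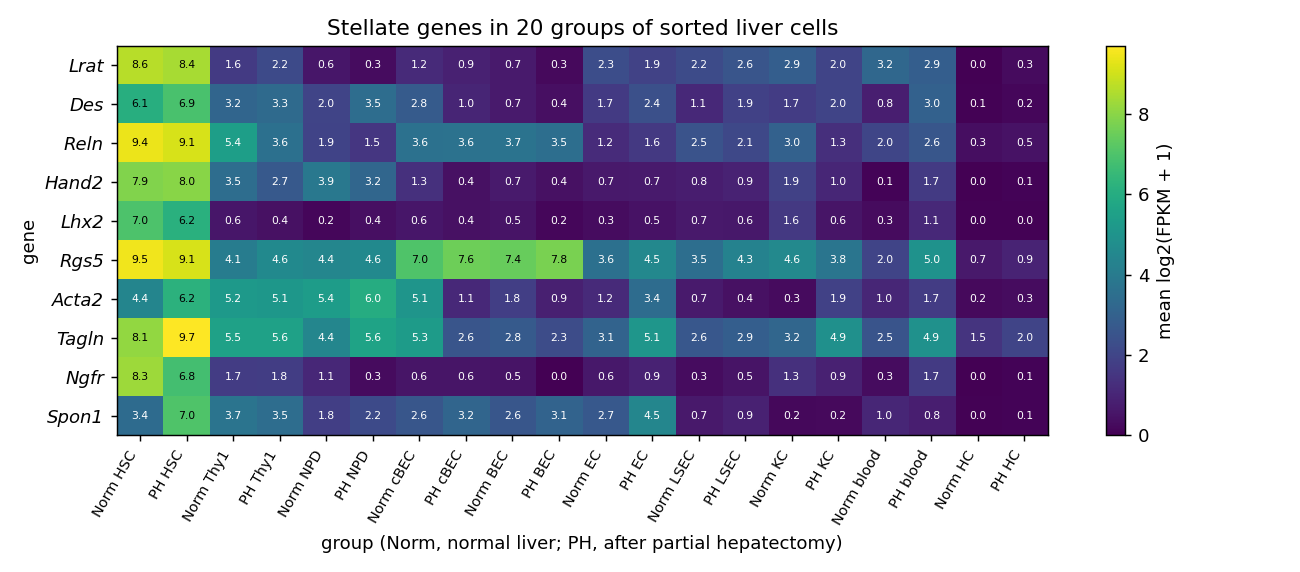
Mean log2(FPKM + 1) of each gene (rows) in the 20 groups (columns), printed in the cells and coloured from low (dark) to high (yellow). The highest cell of each row is an HSC group; for Acta2 and Spon1 it is PH HSC, and normal HSC is exceeded there by other populations. Rgs5 is also high in BEC and cBEC.

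Lrat encodes lecithin retinol acyltransferase, the enzyme that makes retinyl esters (transcript NM_023624, mm9 chr3:82696504-82707896, minus strand). Normal HSC libraries held 295.3 and 538.2 FPKM, and PH libraries 323.6, 451.7 and 268.4 FPKM. The Thy1 libraries held 1.93 and 2.26 FPKM in normal liver and 2.08 and 5.80 after PH. The HSC libraries of the 2 states overlapped, and the lowest of them was 21.4 times the highest library of any other population, a normal blood library at 12.6 FPKM. HSC exceeded Thy1 by 7.01 on the log2 scale in normal liver (SE 0.45, limma adjusted p 6.61e-05) and by 6.22 after PH (SE 0.42, adjusted p 5.12e-05). HSC accounted for 93.7% of the sum of the 10 population means in normal liver and 93.4% after PH.

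Reln encodes reelin, a large secreted glycoprotein of the extracellular matrix (NM_001310464, chr5:21390272-21850523, minus strand). Its other transcript row stood at a ratio of 1.0 to this row in every HSC library. Reln was at 536.1 and 848.1 FPKM in normal HSC and at 557.2, 614.6 and 493.6 FPKM after PH, and these overlapped. In Thy1, normal library 1 held 201.8 FPKM, against 8.24 in normal library 2 and 13 and 9.47 after PH. That library stood apart from the other 3 for this gene. Biliary cells came next in the order of group means, at 12.3 ± 3.30 FPKM in normal BEC (SD, n = 4) and 11.3 ± 2.43 FPKM in normal cBEC (SD, n = 4), whose libraries overlapped. The difference between HSC and Thy1 was 3.96 in normal liver (SE 1.13, adjusted p 0.0467) and 5.52 after PH (SE 1.03, adjusted p 0.00793). The first of these calls was lost in 7 of 9 fits that left out a library, with adjusted p from 0.0561 to 0.137, the last without normal HSC library 2 (difference 3.63). It was kept without a normal Thy1 library, where the difference was 6.19 without library 1 (adjusted p 0.000968) and 1.74 without library 2 (adjusted p 0.0322). Leaving out a PH Thy1 library ended the second call, with adjusted p of 0.0557 and 0.0679.

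Hand2 and Lhx2 encode transcription factors of stellate cells, a basic helix-loop-helix factor and a LIM homeodomain factor. Lhx2 is known for restraining stellate cell activation. Hand2 (NM_010402, chr8:59799780-59803314, plus strand) was at 223.2 and 241.0 FPKM in normal HSC and at 232.2, 340.7 and 202.1 FPKM after PH. Thy1 held 10.9 and 9.14 FPKM in normal liver and 8.21 and 3.69 after PH, so that the PH libraries of Thy1 were both lower, and NPD held up to 15.03 FPKM. Lhx2 (NM_010710, chr2:38206828-38225257, plus strand) was at 87.2 and 178.7 FPKM in normal HSC and at 75.9, 69.3 and 65.8 FPKM after PH. The 3 PH libraries were below both normal libraries. Outside HSC, Lhx2 was under 1 FPKM in 46 of 50 libraries, with a maximum of 3.58 in a normal Kupffer cell library. For Hand2, HSC exceeded Thy1 by 4.41 in normal liver (SE 0.38, limma adjusted p 0.000263) and by 5.27 after PH (adjusted p 5.06e-05). For Lhx2 the differences were 6.41 and 5.71. Lhx2 was under 1 FPKM in all 4 Thy1 libraries and passed the filter on low values through HSC alone. Its differences are therefore given without p-values.

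Ngfr encodes the p75 neurotrophin receptor, a cell surface receptor of nerve growth factor and its relatives that stellate cells are known to carry (NM_033217, chr11:95430140-95449012, minus strand). The normal HSC libraries held 342.0 and 278.3 FPKM and the PH libraries 127.1, 66.1 and 154.5 FPKM. Every PH library was below both normal libraries. The group means were 310.2 ± 45.0 FPKM (SD, n = 2) and 115.9 ± 45.3 FPKM (SD, n = 3). Outside HSC the highest library was PH Thy1 library 2 at 3.89 FPKM, and the lowest HSC library was 17.0 times that. Ngfr exceeded Thy1 by 6.56 in normal liver (SE 0.50, adjusted p 0.000129) and by 5.02 after PH (SE 0.45, adjusted p 0.000232).

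Des, Rgs5, Acta2 and Tagln belong to the mural and contractile side of the set. Des encodes desmin, the intermediate filament of muscle cells (NM_010043, chr1:75356867-75365154, plus strand). It was at 42.0 and 102.7 FPKM in normal HSC and at 95.1, 132.0 and 135.7 FPKM after PH, which overlapped through the higher normal library. Thy1 ranged from 6.65 to 12.4 FPKM, and the highest library outside HSC was normal cBEC library 1 at 21.1 FPKM. Des exceeded Thy1 by 2.91 in normal liver (SE 0.45, adjusted p 0.0037) and by 3.57 after PH (SE 0.41, adjusted p 0.000742).

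Rgs5 encodes a regulator of G protein signalling that is widely used as a pericyte marker (NM_009063, chr1:171585632-171625944, plus strand). HSC held 568.5 and 888.8 FPKM in normal liver and 866.0, 369.7 and 539.6 FPKM after PH. Of the 10 genes it reached the highest level outside HSC, in the biliary populations. BEC libraries ranged from 101.6 to 252.6 FPKM in normal liver, and cBEC libraries from 70.6 to 191.2. After PH the BEC libraries held 185.7 and 247.9 FPKM and the cBEC libraries 137.9 and 256.1. The lowest HSC library was only 1.44 times the highest of these, and HSC made up 63.8% of the sum of population means in normal liver and 51.7% after PH. NPD, the other duct population, ranged from 19.8 to 24.4 FPKM. Thy1 held 6.24 and 37.1 FPKM in normal liver and 15.9 and 33.3 FPKM after PH, so that HSC was higher by 5.42 (SE 0.75, adjusted p 0.00222) and by 4.54 (SE 0.69, adjusted p 0.00286). A shorter Rgs5 transcript (NM_001313705) was listed at 0.261 to 0.276 of the level of the longer row in normal HSC and at 0.325 to 0.380 in PH HSC. This difference was not tested, and the share of other genes whose ratios separate in this way was not counted. The ratio was 0.357 to 0.393 in normal BEC, 0.284 to 0.38 in normal cBEC and 0.21 to 0.45 in PH Kupffer cells.

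Acta2 encodes smooth muscle alpha-actin, the usual marker of activated stellate cells (NM_007392, chr19:34314826-34329863, minus strand), and Tagln encodes transgelin, an actin-binding protein of smooth muscle (NM_011526, chr9:45737711-45744141, minus strand). Genes of this kind are known targets of serum response factor, which binds a sequence called the CArG box. The 250 bases before the gene start were taken from RefSeq (assembly GRCm38.p6) for the 8 of 10 genes that had an entry, in 9 windows; Tagln and Spon1 had none. Both strands were searched for a CArG box, first in its strict form and then allowing 1 G or C in its core of 6 bases. The Acta2 and Lrat windows are shown because they alone held a match, marked in capitals.
Acta2 (chr19:34255374-34255623, minus strand): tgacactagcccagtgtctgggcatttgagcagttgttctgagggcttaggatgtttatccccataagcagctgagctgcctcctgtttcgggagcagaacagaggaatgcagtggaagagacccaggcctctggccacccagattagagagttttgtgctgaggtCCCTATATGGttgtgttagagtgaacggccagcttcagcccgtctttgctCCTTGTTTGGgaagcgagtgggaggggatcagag
Lrat (chr3:82903975-82904224, minus strand): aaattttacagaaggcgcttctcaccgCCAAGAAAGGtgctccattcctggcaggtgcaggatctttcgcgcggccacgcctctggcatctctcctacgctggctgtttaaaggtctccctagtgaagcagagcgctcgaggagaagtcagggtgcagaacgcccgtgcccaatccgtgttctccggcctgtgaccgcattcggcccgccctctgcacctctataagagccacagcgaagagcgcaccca
In Acta2 the relaxed form was matched at 84 and 34 bases before the start, and in Lrat at 223 bases. The strict form was matched in 0 of the 9 windows. Of 32851 promoter windows of the same length, 1.47% held the strict form, 8.59% the relaxed form and 0.67% at least 2 relaxed matches. These matches describe letters and are not measured binding sites.

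In HSC, Acta2 was at 6.66 and 58.7 FPKM in normal liver and at 26.8, 130.9 and 110.6 FPKM after PH. The normal libraries differed 8.8-fold and overlapped the PH range. Thy1 held 36.4 and 35.9 FPKM in normal liver and 25.2 and 45.8 after PH, within the HSC range. NPD held 63.1 and 25.6 FPKM in normal liver and 74.0 and 53.1 after PH. Normal cBEC libraries held 107.1, 21.9, 6.18 and 68.2 FPKM, so that the highest Acta2 library outside PH HSC was cBEC library 1. In the order of group means, PH HSC came first at 89.5 ± 55.2 FPKM (SD, n = 3) and normal HSC came at rank 7 of 20 with 32.7 ± 36.8 FPKM (SD, n = 2), and each of the first 8 groups overlapped its neighbour. The difference between HSC and Thy1 did not pass the test in normal liver (-0.80, SE 0.99, 95% interval -3.06 to 1.46, adjusted p 0.67) or after PH (1.08, SE 0.90, interval -0.98 to 3.15, adjusted p 0.48). The first of these changed sign to 0.69 without normal HSC library 1.

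Tagln was at 201.5 and 391.9 FPKM in normal HSC and at 389.9, 1309 and 1119 FPKM after PH, the highest FPKM of any of the 10 genes. PH library 1 was level with the higher normal library and the other PH libraries were above both. Thy1 held 29.0 and 70.8 FPKM in normal liver and 30.4 and 69.2 after PH. HSC was higher by 2.60 in normal liver (SE 0.70, adjusted p 0.0382) and by 4.15 after PH (SE 0.64, adjusted p 0.0031). The first call was lost in 6 of 9 fits that left out a library, with adjusted p from 0.05 to 0.209, among them those without normal HSC library 2 (2.13, adjusted p 0.141) and without normal Thy1 library 1 (1.97, adjusted p 0.209). The proportion of Tagln to Acta2, both contractile genes, was taken in each library. Among libraries with at least 5 FPKM of Acta2, Tagln was 6.68 to 30.3 times the Acta2 level in the 5 HSC libraries (median 10.1) and 0.442 to 4.93 times in the 16 libraries of other populations (median 1.18). The ranges did not overlap. At 1 to 5 FPKM of Acta2 they did, since the ratio reached 16.2 in PH blood library 1 and was 8.99, 8.67 and 15.6 in the PH Kupffer libraries. It was 10.4 in PH LSEC library 5 and 9.89 in PH blood library 2. This ratio and the limit of 5 FPKM were chosen after the values were seen and were not tested.

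**Figure D3:**
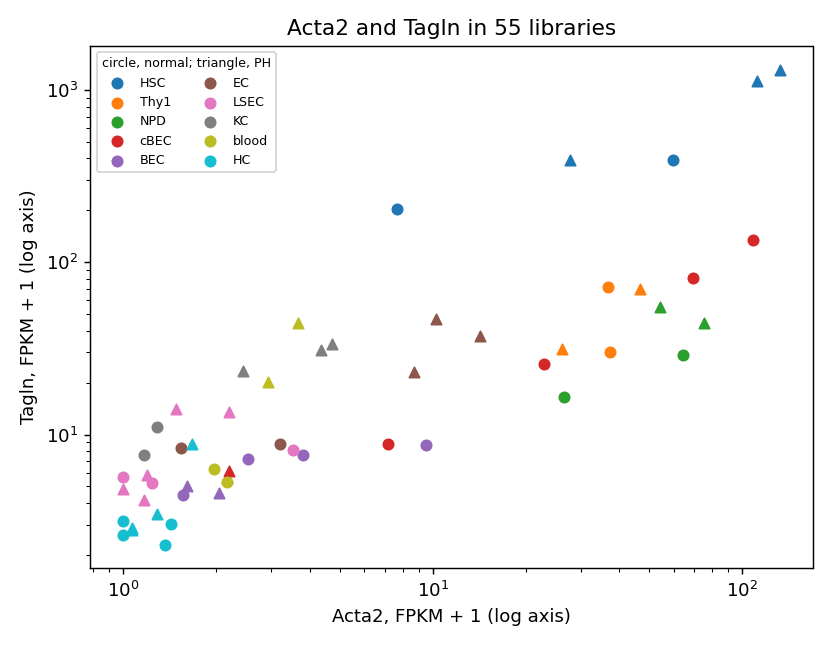
Tagln against Acta2 in all 55 libraries, both in FPKM plus 1 on log axes; circles are normal and triangles PH libraries, coloured by population. The HSC libraries have the highest Tagln levels of the 55. Among libraries with at least 5 FPKM of Acta2 they hold 6.68 to 30.3 FPKM of Tagln per FPKM of Acta2 and the others at most 4.93. At 1 to 5 FPKM of Acta2, PH blood and Kupffer libraries and PH LSEC library 5 reach the HSC range.

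Spon1 encodes spondin 1, a secreted matrix protein known from neural development (NM_145584, chr7:120909512-121186889, plus strand). It was the gene of the set that separated the 2 HSC states most clearly. The normal HSC libraries held 9.57 and 9.49 FPKM and the PH libraries 118.0, 171.6 and 106.7 FPKM, with every PH library above both normal libraries. The means were 9.53 ± 0.06 FPKM (SD, n = 2) and 132.1 ± 34.7 FPKM (SD, n = 3), a ratio of 13.9. Normal HSC was at rank 5 of the 20 groups, within the range of Thy1, which held 11.8 and 12.4 FPKM in normal liver and 16.4 and 5.94 after PH. Spon1 did not differ between HSC and Thy1 past the threshold in normal liver (-0.32, SE 0.44, interval -1.31 to 0.68, adjusted p 0.707), and after PH HSC was higher by 3.57 (SE 0.40, adjusted p 0.000635). The second highest group was PH EC at 20.1, 25.8 and 17.7 FPKM, against 2.36 and 10.95 FPKM in normal EC. HSC made up 22.1% of the sum of population means in normal liver and 71.1% after PH.

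**Figure D4:**
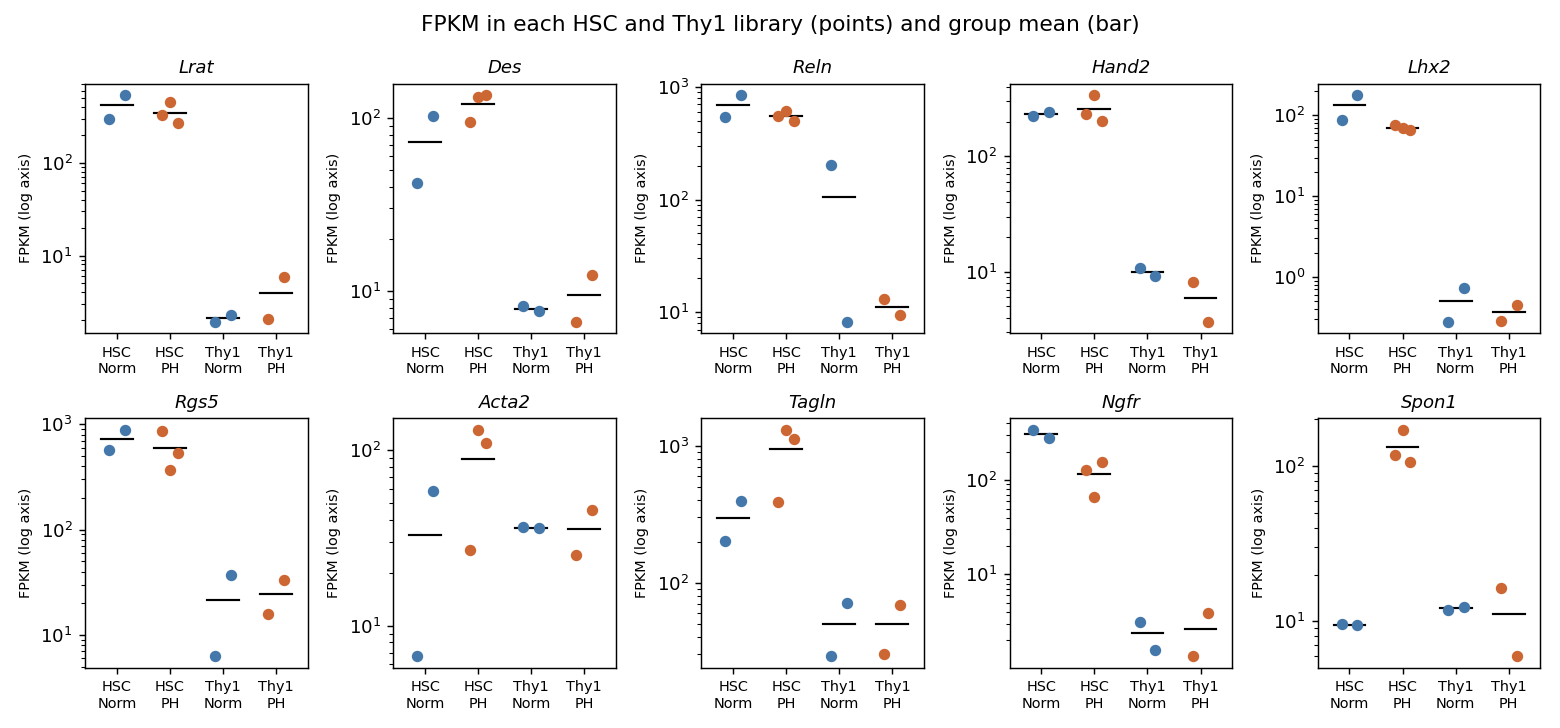
FPKM (log axis) of each gene in every HSC and Thy1 library (points; normal in blue, PH in orange) with the group mean (bar). Spon1 separates PH from normal HSC, Lhx2 and Ngfr lie lower in every PH HSC library, and Acta2 overlaps between HSC and Thy1.

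Counted over the set, 8 of 10 genes were higher in HSC than in Thy1 in normal liver and 0 were lower, where 3.5% of the 13958 genes tested were higher and 16.3% differed in either direction. The exceptions were Acta2 and Spon1. Lhx2 passed the filter on low values through HSC alone, so its calls, counted here in both states, are no support. After PH 9 of 10 were higher, all but Acta2, against 4.11% of all genes higher and 15.5% differing. Leaving out each library in turn gave 6 to 7 genes in normal liver and 8 to 9 after PH. The median difference of the set was 4.19 in normal liver and 4.78 after PH, and that of all genes tested was -0.38 and -0.34.

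After PH, 1 of the 10 genes changed in HSC. Spon1 rose by 3.63 on the log2 scale (SE 0.40, 95% interval 2.72 to 4.54, limma adjusted p 0.0442), where 0.0573% of 13958 genes rose and 0.086% changed in either direction. The call was narrow: it was lost in 8 of the 9 fits that left out a library, with adjusted p from 0.0511 to 0.131 (0.0481 in the fit that kept it), while the change itself stayed between 3.43 and 3.77. Without normal HSC library 2 it was 3.62 (adjusted p 0.0715). The endothelial and Kupffer lists, whose sums were highest in that library, had median differences of -3.14 and -2.96 between PH and normal HSC, with 0 of 10 and 0 of 7 genes past the limma test (8 and 4 at an unadjusted p under 0.05).

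The other 9 genes did not pass this test, and 3 of them (Ngfr, Tagln and Lhx2) had an unadjusted p under 0.05, as 11.1% of all genes did. Ngfr had the next smallest p, with a difference of -1.49 (SE 0.45, interval -2.53 to -0.45, adjusted p 0.293), and -1.64 without normal HSC library 2. Lhx2 differed by -0.82 (interval -1.63 to -0.02, adjusted p 0.437), and by -0.31 without that library. For Tagln the difference was 1.56 (interval 0.10 to 3.02, adjusted p 0.42) and for Acta2 1.8 (interval -0.27 to 3.86, adjusted p 0.506). Without normal HSC library 2, which held the higher normal level of both, these were 2.04 and 3.28, and without normal HSC library 1 the Acta2 difference was 0.32. Des differed by 0.85 (interval -0.10 to 1.8), by 1.49 without normal HSC library 2 and by 0.22 without normal HSC library 1. Lrat, Reln, Hand2 and Rgs5 lay between -0.35 and 0.12, with intervals that spanned 0. The interval was widest for Reln (-2.64 to 2.07), and it ran from -1.92 to 1.22 for Rgs5, from -1.18 to 0.72 for Lrat and from -0.67 to 0.91 for Hand2. Counted by libraries that did not overlap, 1 gene was higher after PH (Spon1) and 2 were lower (Lhx2 and Ngfr), where 12.7% of all genes were higher and 10.9% lower in this way.

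Lhx2 was under 1 FPKM in all 4 Thy1 libraries, so its change there could not be judged. Of the other 9 genes, 0 passed the test after PH in Thy1 cells by limma, where 0.516% of genes did, and 0 had an unadjusted p under 0.05, where 12.7% did. The differences ranged from -1.84 (Reln, SE 1.13, adjusted p 0.589), which rested on normal library 1, to 0.56 (Lrat, SE 0.45, adjusted p 0.721). Hand2 was lower in both PH libraries (-0.74, adjusted p 0.491), and was the only gene of the 10 whose libraries did not overlap; 28.7% of all genes were lower and 23.9% higher in this way. For 0 of these 9 genes did the response to PH differ between HSC and Thy1 past the threshold, where 0.0143% of genes did. The largest difference of responses was that of Spon1, 3.88 (SE 0.59, interval 2.53 to 5.23, adjusted p 0.123), and the next smallest p was that of Ngfr, -1.54 (SE 0.67, interval -3.08 to 0.00, adjusted p 0.511). Spon1 had an unadjusted p under 0.05, as the only gene of these 9, where 9.77% of all genes did.

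**Figure D5:**
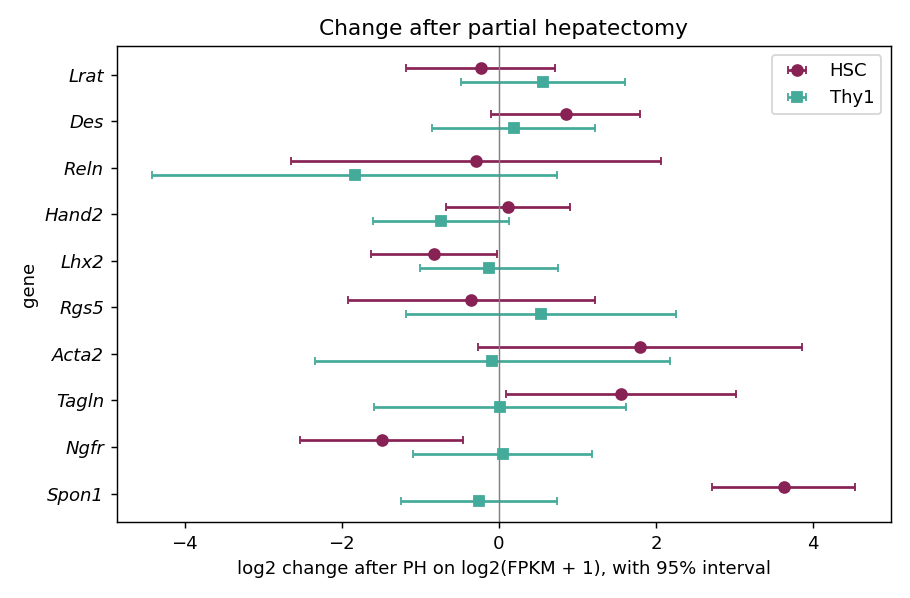
Difference between PH and normal on log2(FPKM + 1) for each gene in HSC (circles) and Thy1 cells (squares), with 95% intervals from the limma fit; the line marks 0. The interval of Spon1 in HSC, 2.72 to 4.54, lies farthest from 0, and every Thy1 interval spans 0.

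In the other 8 populations the 10 genes gave 80 combinations of gene and population, of which 54 passed the filter on low values, and 8 of these rose after PH. All 8 were in blood cells and Kupffer cells. In blood, 6 of 8 genes tested rose, where 24.3% of 12819 genes rose and 64% changed. Rgs5 went from 2.02 and 4.33 to 22.7 and 39.6 FPKM (2.95, SE 0.40, adjusted p 0.00374). Tagln went from 4.32 and 5.29 to 43.2 and 19.2 FPKM (2.37, adjusted p 0.00713) and Des from 0.575 and 0.964 to 7.26 and 6.94 FPKM (2.20). In each of these the PH libraries were above the normal ones, as for 33.2% of all genes. Hand2 (1.59), Ngfr (1.32) and Acta2 (0.67) also rose, each remaining under 3 FPKM. Des, Hand2 and Ngfr were under 1 FPKM in both normal blood libraries and passed the filter on low values through PH alone. Acta2 was at 1.17 and 0.972 FPKM in normal blood, so its pass rested on PH as well. The calls of these genes, counted here, are therefore no support, and their differences are given without p-values. Without a blood library the count over all 8 populations was 4 or 5. Kupffer genes summed to 836.1 and 1047 FPKM in normal blood and to 10041 and 17618 in PH blood, endothelial genes to 777.5 and 889.1 and then 5715 and 2493, and the 28 other stellate genes to 287.1 and 440.2 and then 667.2 and 559.1. Their part in the rises was not tested.

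In Kupffer cells 2 of 9 genes tested rose, both contractile, where 16.7% of 11835 genes rose and 36.8% changed. Tagln went from 10.1 and 6.58 to 30.1, 32.3 and 22.5 FPKM (1.66, SE 0.24, adjusted p 0.00574). Acta2 went from 0.284 and 0.166 to 3.35, 3.72 and 1.44 FPKM (1.59, SE 0.34). Acta2 was under 1 FPKM in both normal libraries and passed the filter on low values through PH alone. Its call, counted here, is therefore no support, and its differences are given without p-values. The PH libraries lay above the normal libraries for both genes. Of all genes 28.9% were higher in this way. Leaving out a library ended the Acta2 call in 3 of 5 fits and the Tagln call in 1 of 5. PH Kupffer library 3 has no cell type tag in the labels and was kept as titled. Without it the differences were 1.81 for Tagln (adjusted p 0.00117) and 1.89 for Acta2. The remaining 7 genes did not pass. Among them Lhx2, Reln and Lrat were lower in every PH library than in any normal one, as were 34.7% of all genes. In normal libraries Lhx2 was at 3.58 and 1.07, Reln at 16.1 and 2.80 and Lrat at 8.55 and 4.71 FPKM. After PH these were at most 0.638, 1.66 and 4.26 FPKM. Endothelial genes summed to 3169 and 4149 FPKM in normal and to between 512.1 and 894.4 in PH Kupffer cells, and the other stellate genes to between 416.8 and 853.8 and then 229.9 and 283.0. Their part was not tested.

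In EC, LSEC, HC, BEC, cBEC and NPD 0 genes of the set passed the limma test, where 0.0249%, 8.46%, 6.19%, 1.81%, 0.0681% and 15.2% of genes tested changed. At an unadjusted p under 0.05 the counts were 4 of 8, 0 of 7, 0 of 2, 0 of 5, 1 of 8 and 3 of 7 genes tested, where 10.8%, 24.9%, 21.5%, 16.3%, 10.2% and 34% of all genes had such a p. The endothelial cells (EC) had the same contractile genes at higher levels in every PH library: Acta2 was at 0.541 and 2.21 FPKM in normal and at 7.67, 13.2 and 9.26 FPKM after PH (2.28, adjusted p 0.181). Tagln in EC was at 7.34 and 7.79 FPKM and then at 22.0, 36.3 and 45.6 FPKM (2.0, adjusted p 0.163). Of all genes 16.6% were higher in every PH EC library than in any normal one. Portal fibroblast genes summed to between 2698 and 3827 FPKM in normal and between 5717 and 7490 in PH EC, and biliary genes to between 6.44 and 38.8 and then 72.7 and 279.2. Their part in these differences was not tested. In clonal biliary cells the values lay in the other direction, with Tagln at 134.2, 24.7, 7.77 and 79.5 FPKM in normal libraries and 5.17 and 4.62 FPKM after PH (-2.75, adjusted p 0.503), and Acta2 at 1.202 and 1.164 FPKM after PH (-3.93, adjusted p 0.405). The 4 normal cBEC libraries were themselves spread 17.3-fold. Of all genes 14.4% were lower in both PH cBEC libraries than in any normal one. Mesothelial genes summed to between 193.8 and 801.8 FPKM in normal and 65.4 and 118.6 in PH cBEC, portal fibroblast genes to between 139.2 and 451.2 and then 59.7 and 86.2, and endothelial genes to between 31.5 and 226.8 and then 18.1 and 27.0. Their part was not tested. PH cBEC library 1 carries a treatment tag that says normal in the labels and was kept as titled. Whether these responses differed between populations was not tested. In NPD, Tagln (1.18, adjusted p 0.0606), Hand2 (-0.67, adjusted p 0.0769) and Des (1.48, adjusted p 0.0851) came closest to the threshold. Hepatocytes held little of any of the 10, with only Rgs5 and Tagln passing the filter and a maximum of 7.84 FPKM.

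Other genes of the same pathways were counted in HSC from lists of stellate identity (28 genes tested), retinoid handling (16), stellate activation (22), smooth muscle contraction (16) and pericytes (13). In the comparison of PH with normal HSC, 0 genes of any of these lists passed the test by limma, and 10, 3, 4, 1 and 2 had an unadjusted p under 0.05, where 0.086% of all genes passed and 11.1% had such a p. Their median differences were -0.07, 0.04, 0.25, 0.40 and -0.16, against 0.00 for all genes. Among stellate identity genes, Adamtsl2, a secreted matrix protein, was at 63.3 and 55.2 FPKM in normal and at 198.1, 298.7 and 157.7 FPKM after PH (1.82, adjusted p 0.106). Pth1r, the receptor of parathyroid hormone, was at 561.6 and 453.4 FPKM and then 169.4, 57.1 and 229.0 (-1.94, adjusted p 0.238), and the secreted factor Angptl6 at 516.9 and 440.8 and then 235.8, 138.6 and 121.0 FPKM (-1.59, adjusted p 0.218). For these 3 genes, taken from the extremes of the list, the libraries of the 2 states did not overlap, where 12.7% of all genes were higher and 10.9% lower in this way. Plat, tissue plasminogen activator, differed by 1.77 with overlap.

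Of the activation list, Timp1, an inhibitor of matrix metalloproteinases, was at 4.47 and 4.28 FPKM in normal HSC and 15.8, 46.7 and 41.4 FPKM after PH (2.59, adjusted p 0.11). It was higher in every PH library. Col3a1, a fibrillar collagen, and Tnc, tenascin C, had the lowest differences of that list (-1.28 and -1.11, adjusted p 0.551 and 0.672). The activation list thus held values in both directions, with no gene past the threshold. In retinoid handling, Aldh1a1, a retinaldehyde dehydrogenase, differed by 1.27 (adjusted p 0.405) and Plin2, a lipid droplet protein, by 0.76 (adjusted p 0.421). Cyp26b1, a retinoic acid hydroxylase, differed by -1.83 (adjusted p 0.382). Of the contractile list Tpm1, a tropomyosin, differed by 1.25 (adjusted p 0.322) and Synpo2, an actin-binding protein, by 0.88, while Myh11, the smooth muscle myosin heavy chain, and Actg2 differed by -0.24 and -0.23. Of the pericyte list Ndufa4l2 (-1.86) and Notch3 (-1.19) were lowest, and Mcam (0.61) and Abcc9 (0.48) highest.

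Between HSC and Thy1 in normal liver, 20 of 28 stellate identity genes were higher and 3 lower in HSC, with a median difference of 3.86. Of the pericyte genes 9 of 13 were higher and 1 lower (median 4.12). Of the activation list 2 of 22 were higher and 6 lower (median -0.41), of the contractile list 2 of 16 were higher and 2 lower (median -0.02), and of the retinoid list 2 of 16 were higher and 1 lower (median -0.30). Of all genes 3.5% were higher and 12.8% lower, with a median of -0.38. After PH the counts were 23 higher and 1 lower, 7 and 1, 3 and 6, 3 and 1, and 3 and 6, in the same order, where 4.11% of all genes were higher and 11.4% lower. Portal fibroblast genes were lower in HSC for 11 of 13 in normal liver and 12 of 13 after PH, and mesothelial genes for 7 of 7 in both states. Of the mesothelial genes 5 were under 1 FPKM in every normal HSC library and 6 in every PH HSC library. Of the portal fibroblast genes these numbers were 5 and 8. Genes under 1 FPKM in every HSC library could pass the filter only through Thy1, so their calls are no support. Of the 28 stellate identity genes, 2 were under 1 FPKM in every normal Thy1 library and 2 in every PH Thy1 library. For the 14 listed pericyte genes these numbers were 3 and 2. They were 1 and 2 for the 17 listed contractile genes, and 3 and 1 for the 17 listed retinoid genes. Genes under 1 FPKM in every Thy1 library could pass only through HSC, so such calls are no support either.

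The patterns of the 10 genes over the 20 group means of log2(FPKM + 1) were compared with each other and with those of other genes. Pearson's r between pairs of them was highest for Des with Tagln (0.977) and Lhx2 with Ngfr (0.976), and lowest for Lrat with Acta2 (0.309). These are descriptions over 20 means that share libraries. Among 11793 other genes, the most similar patterns were Colec10 (0.977) and Bmp5 (0.973) for Lrat, Lama1 (0.991) for Lhx2, Tbx20 (0.987) and Ccbe1 (0.982) for Hand2, and Robo2 (0.987) and Gucy1a2 (0.982) for Ngfr. Colec10 encodes a collectin, Bmp5 a bone morphogenetic protein, Lama1 a laminin chain, Tbx20 a T-box transcription factor and Robo2 a receptor of Slit proteins. Reln was closest to Fam171b (0.960) and Abcc9 (0.956), a subunit of potassium channels. Of the contractile genes, Acta2 was closest to the tropomyosin Tpm2 (0.953) and to Col6a1 (0.948), Tagln was closest to the myosin light chain Myl9 (0.967) and to Mustn1 (0.960), and Des was closest to Mustn1 (0.960) and Olfml3 (0.942). Rgs5 was closest to Spry1 (0.938) and Ptpn9 (0.928). Spon1 had the lowest values, with Grk5 (0.859) and Cd63 (0.825).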

How the data were processed

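The labels give cells sorted by FACS and libraries made with standard Illumina methods. The deposited table holds FPKM per transcript row, with a column for each library, per the file name the authors chose. The submitters' processing notes name CASAVA 1.8.2, Bowtie 1.0.0 and mm9, and the counting tool is not given in the sources used here. The deposited FPKM do not give depth, so no counting interval could be made; FPKM sums ranged from 624726 to 1203197 per library. Of 36141 rows, 1 per symbol was kept. Table starts were raised by 1, since 9634 of 11313 transcripts matched RefSeq lengths only that way.

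Values were log2(FPKM + 1), which understates changes of low genes. limma 3.58.1 (R 4.3.3, trended and robust variances, two-sided, Benjamini-Hochberg over all genes, threshold 0.05) was fitted to the 4 HSC and Thy1 groups together (5 residual degrees of freedom), since separate fits leave 2 or 3. All 20 groups were fitted for HSC against 8 populations (35 degrees of freedom), and each other population alone for PH. Genes needed 1 FPKM in 2 libraries (elsewhere, in as many as the smallest group). On simulated data, 62 of 200 genes changed by 2 were recovered for PH in HSC and 55 of 200 for HSC against Thy1, among 13389 genes. There all other genes had the same mean in the 4 groups, whereas 16.3% of genes differed between HSC and Thy1 in normal liver. Recovery in the real data may therefore differ from these counts. The 10 genes and the lists were chosen with earlier results of these data known. All 10 are named, with the 2 most similar patterns each (genes reaching a mean of 10 FPKM in a group) and the 2 largest rises and falls of each list, except for a few genes not reported here. Alternatives were a pseudocount of 0.1, no filter, quantile and upper-quartile scaling, the mean over a symbol's rows, a replicate block, other sets of groups, and leaving out each library. Figures used Python 3.11.15 and matplotlib 3.10.9.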

Additional observations from a re-analysis of the deposited data

Results flagged for a closer look

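Tagln was at 7.84 FPKM in library 1 of PH hepatocytes, far from the other 3, which lay between 1.81 and 2.45 FPKM. This was 1 flag among 50 groups examined, where chance gives about 2.5. The same library was the highest PH hepatocyte library for every other gene of the set but Reln. Of those genes Rgs5 was at 2.36 FPKM there and the rest were under 1 FPKM.

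Ngfr moved in opposite directions after PH in every library of HSC and blood cells. It was lower in PH HSC (-1.49 on the log2 scale, not past the threshold) and higher in PH blood (1.321). In blood it was at 0.373 and 0.162 FPKM in normal and 2.31 and 2.01 FPKM in PH libraries. With both normal blood libraries under 1 FPKM, Ngfr passed the filter on low values there through PH alone. Its call in blood is therefore no support, and the difference is given without a p-value. The difference between these responses was not tested.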

How the results depend on the processing

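In HSC after PH, the count of 1 gene of 10 became 0 with no filter (Spon1 adjusted p 0.0762) and 0 with a replicate block (0.243), and 2 in a fit of all 20 groups (Spon1 4.37e-09, with Ngfr added at 0.0112); leaving out each library gave 0 to 1. Over all genes the count of 12 became 0 with no filter, 1 with the block, 1 with the HSC groups alone and 1960 with all 20 groups. For Thy1 cells the 72 genes became 316, 1, 1 and 1886, and for the difference of responses 2 became 38, 0 with the block and 1392 with all 20 groups; the cause was not tested. In that last fit the difference of responses counted 1 gene of the 10 (Spon1, adjusted p 5.87e-06). Same-numbered libraries did not deviate together (correlations from -0.07 to 0.06). In groups of 2 libraries the deviations mirror each other, so this cannot decide whether the numbers pair the libraries. Leaving out libraries gave 0 to 1 genes in Thy1 (Reln -4.07, adjusted p 0.0398, without normal library 2), 6 to 7 for HSC against Thy1 in normal liver, 8 to 9 after PH, 9 to 10 and 10 against the 8 populations, and 4 to 12 of 54 in the other populations, where the block and the fit of all groups each gave 11.

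Reln in HSC against Thy1 in normal liver lost its call in 6 of 8 alternatives that kept all libraries (adjusted p 0.0576 to 0.172), and Tagln in 2 (0.0587 and 0.0646). In all 20 groups the Kupffer cell calls were lost (Acta2 0.159, Tagln 0.0824), and blood Acta2 was lost in 3 alternatives (0.0603 to 0.603).

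Sign changed only for values that had not passed. With quantile scaling these were Hand2 in HSC (-0.10), Lhx2 (0.063) and Tagln (-0.057) in Thy1, and Spon1 between HSC and Thy1 in normal liver (0.13). Leaving out a library turned 17 more, given as ranges. For PH in HSC these were Lrat (-0.66 to 0.20) and Reln (-0.62 to 0.044), positive without normal library 2, and Hand2 (-0.098 to 0.28), negative without PH library 2. For PH in Thy1 they were Reln (-4.07 to 0.39), Rgs5 (-0.66 to 1.73) and Tagln (-0.61 to 0.65), turned without normal library 1, Lhx2 (-0.34 to 0.09) and Ngfr (-0.48 to 0.58), turned without normal library 2, Acta2 (-0.50 to 0.33), turned without PH library 1, and Lrat (-0.008 to 1.14), Des (-0.22 to 0.60) and Spon1 (-0.92 to 0.41), which like Tagln (-0.57) and Ngfr turned without PH library 2. Acta2 between HSC and Thy1 in normal liver (-2.28 to 0.69) turned without normal HSC library 1, and the differences of response of Reln (-0.68 to 3.78) and Rgs5 (-2.08 to 0.31) without normal Thy1 library 1. Depth is unknown, and the numbers of 2 and 3 libraries limit the precision.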
